A study of Mus musculus with 2 samples.

Results

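The genes described here are 10 markers of astrocytes and radial glia, namely Aqp4, Gja1, Glul, Aldh1l1, Sparcl1, Fabp7, Ptprz1, Gpm6b, Prom1 and Ednrb. They were chosen by name, as every non-control probe that carries their symbol on the array, and the related markers Slc1a3, Gfap and Nes were kept apart. All 10 had probes, 21 probes on 30 spots in all, among 28781 named genes and transcripts on the array. Total RNA of 2 mouse neural progenitor cultures of strain 129/Ola was measured on 1 Agilent 1-colour whole genome array each. Both cultures derive from N31, a progenitor line made from induced pluripotent stem cells of NSEB5-2C origin. N31 carries the reprogramming genes c-Myc, Klf4, Sox2 and Oct3/4 under doxycycline control. The Pax6 culture received Pax6, a developmental transcription factor with a paired domain, and the EGFP culture received a green fluorescent protein. In each the gene sat behind the constitutive CAG promoter and was delivered by the Tol2 transposon. Both were sampled 24 h after doxycycline was added, so the cultures share the inducible genes and the drug. Whether the introduced factors reached equal levels was not tested. Sox2 read 307.2 on the Pax6 array and 79.2 on the EGFP array before scaling. Whether that signal comes from the introduced copy or from the cells' own gene was not tested. No culture without doxycycline was measured here. The shape of the EGFP cells had visibly altered by then, while that of the Pax6 cells had not. The number of clones behind each culture is not stated in the labels. Pax6 itself, whose 3 measured probes differed by 0.26 to 0.35 on the log2 scale, read 821.7 on the Pax6 array and 556.7 on the EGFP array, 1.27-fold higher. Whether its probes lie in the part of the gene that the vector carries was not tested.

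Radial glia are the elongated progenitors of the embryonic brain, and astrocytes arise from them. The 2 cell types share a membrane and metabolic equipment that takes up glutamate, moves water and couples cells through gap junctions, and many genes of that equipment serve as markers of both. Pax6 is itself a radial glial factor of the cortex, where it is known to act on the choice between self-renewal and the production of neurons. None of these genes is restricted to glia in the whole body. Prom1, Ednrb, Gja1 and Glul, for instance, are also known from epithelia, the neural crest, the heart and the liver.

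With 1 array per culture there was no replicate check and no test, and every difference below compares these 2 arrays. Signals are the scanner software's processed intensities. A difference is the log2 signal on the Pax6 array minus that on the EGFP array, after the 75th percentile of each array was subtracted (a signal of 990.9 on the Pax6 array and 854.1 on the EGFP array). The value after ± is the software's own error of the measurement carried to that difference, and it leaves out the variation between cultures. Its median over all genes was 0.20. A probe not well above background on an array has only a bound there, and the difference is then written as "at least". The lowest signal well above background was 9.30 on the Pax6 array and 10.3 on the EGFP array. In bulk RNA, fewer cells of a type and less RNA per cell cannot be told apart.

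By their brightest probe, 9 of the 10 marker genes stood above background on both arrays and Aqp4 on the Pax6 array alone. Aqp4 was also the 1 gene of the 10 that was past 2-fold, being higher on the Pax6 array, and 0 were 2-fold lower. Among the 19243 genes that passed the same filter, 4.78% differed by 2-fold (2.35% higher and 2.43% lower), so a count of 1 in 10 says little about the group. The other 9 genes lay between -0.40 and 0.66 on the log2 scale. Of the 10, 7 lay above 0 and 3 below, against 47.1% of all genes above 0. Aqp4 is among the 7, but a gene above background on the Pax6 array alone could not fall below 0 by this rule. Scaling by the array medians instead moved both values, to 8 of 10 and to 60.0%. The median difference of the 10 genes was 0.30, beside -0.01 for all genes, and it was 0.24 for the 9 genes measured on both arrays.

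**Figure D1:**
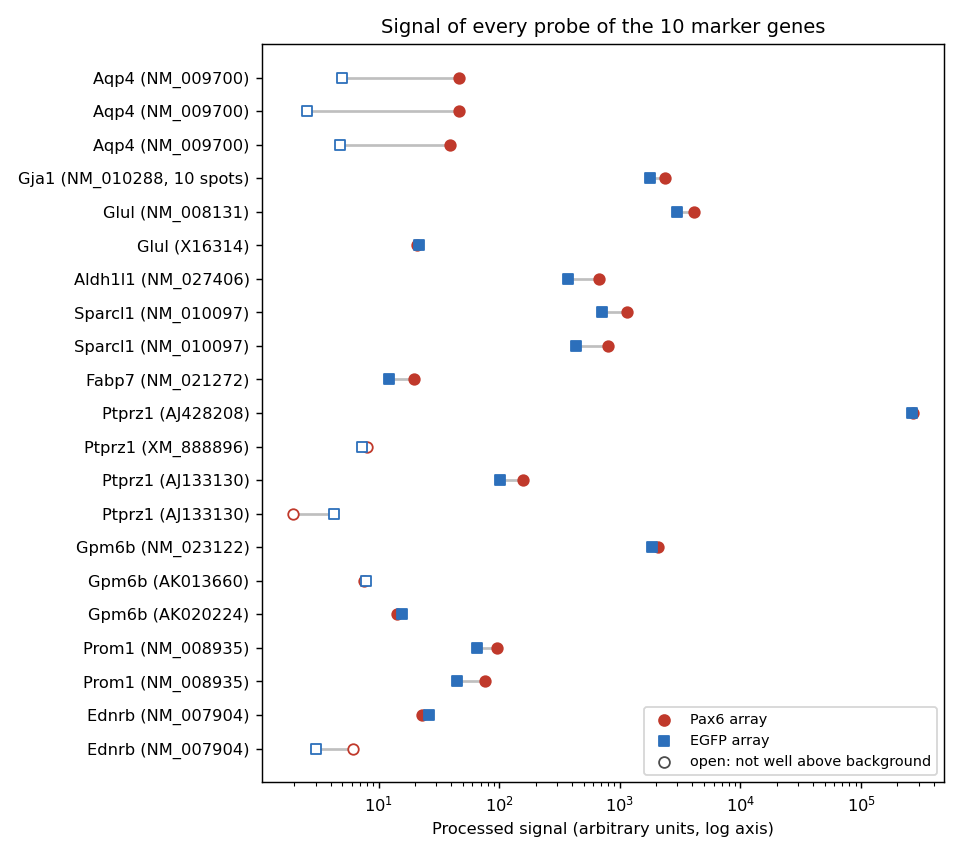
Processed signal (log axis, arbitrary units) of each of the 21 probes of the marker genes on the Pax6 array (circles) and on the EGFP array (squares), with open symbols where a probe was not well above background. The 3 Aqp4 probes read 39.3 to 46.8 on the Pax6 array and are open on the EGFP array, while most other genes have their 2 symbols close together.

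Among the genes of transport and coupling, Aqp4 codes for the water channel of astrocyte endfeet. Its 3 probes lie within chromosome 18, 15742177 to 15742872 (mm7). They read 46.3, 46.8 and 39.3 on the Pax6 array, against 4.97, 2.53 and 4.75 on the EGFP array, where none was well above background. All 3 therefore separated the arrays in the same way. The brightest probe gave a bound of at least 3.86-fold higher (at least 1.95 on the log2 scale), and the other 2 gave at least 3.89-fold and 3.28-fold. The bound of the brightest probe was also past 3-fold, as were the differences of 1.39% of all genes. With normexp background correction, which adds an offset of 50 to every signal and so draws dim probes together, the 3 bounds were at least 0.67, 0.68 and 0.50, all under 2-fold.

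Gja1 codes for connexin 43, the main gap junction protein of astrocytes. Its probe (chromosome 10, 56207239 to 56207298) was printed on 10 spots, which gives the best view of the technical spread among these genes. The spots read 2196 to 2578 with a median of 2330 on the Pax6 array, and 1634 to 1898 with a median of 1779 on the EGFP array. The 2 sets of unscaled signals did not overlap. After scaling, the difference was 0.20 with an SD of 0.04 over the 10 spots, from 0.13 to 0.27, and was above 0 at every spot. That is 1.15-fold higher. The spots share 1 RNA sample per array, so their agreement covers printing, hybridization and scanning only. The software's error for this gene, 0.20, was larger than the SD over spots, and 20.6% of all genes had a difference as high.

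**Figure D2:**
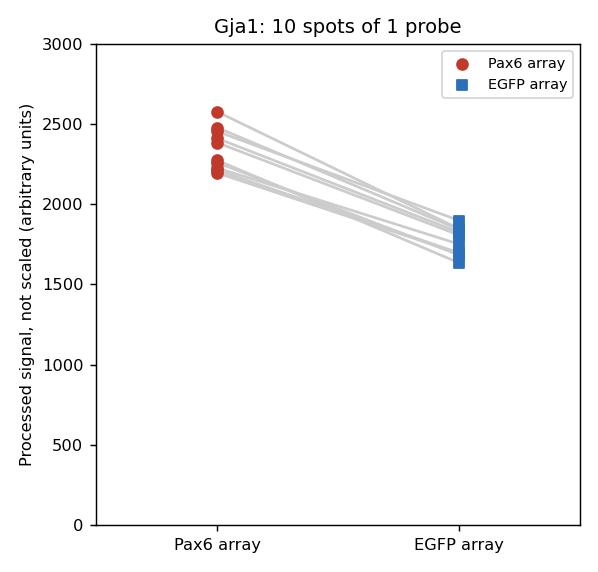
Processed signal before scaling (arbitrary units) of the 10 spots of the Gja1 probe on the Pax6 array (left) and the EGFP array (right), with lines joining the same spot position. All 10 Pax6 spots (2196 to 2578) lie above all 10 EGFP spots (1634 to 1898).

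A list of other connexins, pannexins and the junction scaffold gene Tjp1 had 21 genes with a probe, of which 12 were above background and 1 was past 2-fold. That gene was Gjb1, connexin 32 of liver and myelinating glia, at 1.13 ± 0.28, with signals of 48.1 on the Pax6 array and 18.9 on the EGFP array, although it differed by 0.49 with normexp background correction. Gjb6, the other main astrocyte connexin, stayed at background on both arrays. Gjc1, the connexin 45 gene, differed by 0.34 ± 0.20, in the same direction as Gja1.

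Glul and Aldh1l1 are enzymes of astrocyte metabolism. Aldh1l1, the folate enzyme 10-formyltetrahydrofolate dehydrogenase and a general astrocyte marker, read 674.8 on the Pax6 array and 369 on the EGFP array (chromosome 6, 90677026 to 90677586). It was 1.58-fold higher, with a difference of 0.66 ± 0.20, the largest of the 9 genes measured on both arrays. It was more than 2 measurement errors from 0, and 4.90% of all genes had a difference as high. Its values ranged from 0.64 to 0.74 over the alternatives tried.

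Glul codes for glutamine synthetase, which turns glutamate and ammonia into glutamine. Its brighter probe (chromosome 1, 153870358 to 153870417) read 4094 on the Pax6 array and 2980 on the EGFP array, a difference of 0.24 ± 0.20. A dim probe about 1 kb away, built on another mRNA record (X16314), read 20.6 on the Pax6 array and 21.6 on the EGFP array and differed by -0.28 ± 0.28. The probes disagreed by 0.53, a gap as large as that in 6.40% of the 5800 genes with several measured probes, whose median gap was 0.11. No direction was read for Glul, and the mean of its probes was -0.02.

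Partner genes of these enzymes mostly lay within 2-fold. Of 13 measured genes of glutamate and glutamine handling, 12 lay within 2-fold. The exception was the glial glutamate transporter gene Slc1a3, 12.9-fold lower, with signals of 27.5 on the Pax6 array and 306.4 on the EGFP array. Its 2 probes differed by -3.69 and -1.79, and with normexp background correction the gene was at -2.18. The other glial transporter gene, Slc1a2, stayed at background on both arrays. Among 13 measured aldehyde dehydrogenase and one-carbon genes, the mitochondrial relative Aldh1l2 differed by 0.30 ± 0.20. The retinoic acid synthesis gene Aldh1a3 was the 1 gene of these past 2-fold, and it was lower (-1.14 ± 0.21, and -0.86 with normexp background correction).

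Sparcl1 codes for hevin, a secreted matrix protein of astrocytes and radial glia that promotes synapse formation in mouse. Its 2 probes lie next to each other on chromosome 5, from 103268433 to 103268613. They read 1146 and 801.1 on the Pax6 array, against 705.2 and 432.8 on the EGFP array. Both were higher, by 0.49 ± 0.20 and 0.67 ± 0.20, or 1.40-fold and 1.60-fold, and both were more than 2 measurement errors from 0. Its relative Sparc differed by 0.37 ± 0.20, and Fstl1 by 0.98 ± 0.20, or 1.06 after scaling by array medians. The brightest probe of Spock2 differed by -0.84 ± 0.22, but its 3 detected probes ranged from -0.84 to 0.80. Spock3 was at least 2.40-fold lower, while its bound on the log2 scale was -0.25 with normexp background correction.

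Counted by brightest probe, 2 of the 9 genes measured on both arrays were higher by more than 2 measurement errors, Aldh1l1 and Sparcl1. Over all 17831 such genes the share was 7.35% for higher and 10.2% for lower, where 0 marker genes qualified. A second probe of Prom1, described next, also passed this mark.

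**Figure D3:**
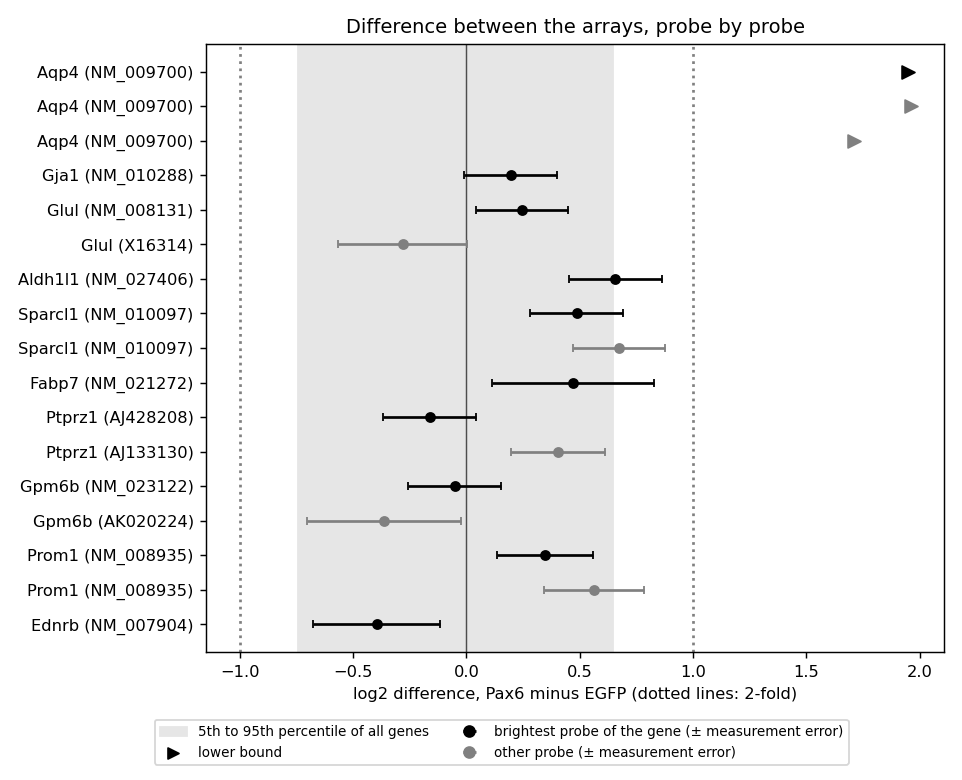
Log2 difference (Pax6 minus EGFP) of the 17 probes of the marker genes that stood above background on 1 or both arrays, in black for the brightest probe of a gene and in grey for the others. Bars are measurement errors, arrowheads are lower bounds, the band holds the 5th to 95th percentile of all genes (-0.74 to 0.64), and the Aqp4 arrowheads alone lie beyond the dotted 2-fold lines.

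Fabp7, Prom1, Ptprz1 and Gpm6b are genes of the radial glial surface and interior. Fabp7 codes for brain lipid-binding protein, a carrier of fatty acids that marks radial glia and is known as a target of Pax6 in rodent brain. Its probe (chromosome 10, 57609720 to 57609779) was dim on both arrays, at 19.7 on the Pax6 array and 12.3 on the EGFP array, close to the lowest signals that counted as above background. The difference of 0.47 ± 0.36 was within 2 measurement errors of 0, and it was 0.17 with normexp background correction. Its relative Fabp4, the carrier of fat cells and macrophages, was at least 2-fold higher at 1.53 ± 0.22, with 0.85 after normexp background correction, and its 2 probes agreed in sign. Fabp5 and Fabp3 differed by -0.18 ± 0.21 and -0.77 ± 0.25.

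Prom1 codes for CD133, a pentaspan membrane protein of the apical protrusions of neural progenitors. Its probes lie on chromosome 5, at 43314657 to 43314716 and at 43326736 to 43326795. They read 96.0 and 76.5 on the Pax6 array, against 65.0 and 44.6 on the EGFP array. Both were higher, by 0.35 ± 0.21 and 0.56 ± 0.22, which is 1.27-fold and 1.48-fold. Its paralog Prom2 stayed at background on both arrays.

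Ptprz1 codes for a receptor tyrosine phosphatase whose secreted form is the proteoglycan phosphacan. Its 4 probes gave very different readings. A probe built on the record of the short phosphacan isoform (AJ428208, chromosome 6, 22942347 to 22942406) read 271491 on the Pax6 array and 261918 on the EGFP array. These signals ranked 3 and 1 among all non-control spots of their arrays, 274 and 307 times the 75th percentile, and neither was marked as saturated. A probe on the record of the DSD-1 proteoglycan (AJ133130, chromosome 6, 22945214 to 22945273) read 156.5 on the Pax6 array and 102 on the EGFP array. The remaining 2 probes, one of them (22942669 to 22942728) close to the very bright one, stayed at background on both arrays. The bright probe differed by -0.16 ± 0.20 and the AJ133130 probe by 0.40 ± 0.21. This gap of 0.57 was matched or exceeded in 5.38% of genes with several measured probes. No direction was read for Ptprz1. Without the bright probe, the median of the 10 genes was 0.38 and 8 of them lay above 0. What the bright probe hybridized to was not tested.

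The secreted ligands of Ptprz1 differed in opposite directions. Pleiotrophin (Ptn) was 2.48-fold higher, with signals of 4042 on the Pax6 array and 1405 on the EGFP array (1.31 ± 0.20). Midkine (Mdk) was 2.04-fold lower, with signals of 789.5 on the Pax6 array and 1386 on the EGFP array (-1.03 ± 0.20). Scaling by array medians or normexp background correction left Mdk at -0.94, just inside 2-fold, and Ptn between 1.28 and 1.39 over the scalings tried. Of the other 8 measured partners, 0 differed by 2-fold. Of these, the matrix protein gene Tnc differed by -0.59 ± 0.20. The partner genes Cntn1 and Tnr are outside that count, since they were not well above background.

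Gpm6b codes for a membrane glycoprotein found in neurons and glia. The probe on its reference transcript (chromosome X, 161163161 to 161163220) read 2065 on the Pax6 array and 1846 on the EGFP array, a difference of -0.05 ± 0.20. Of all the marker genes it lay nearest to 0, and scaling by array medians turned its sign (0.03). A dim probe on a testis cDNA record (AK020224) read 14.2 on the Pax6 array and 15.8 on the EGFP array and differed by -0.37 ± 0.34, and the probe on a hippocampal cDNA record was not well above background. Its paralog Gpm6a was not well above background.

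Ednrb codes for the endothelin B receptor, a G protein-coupled receptor of astrocytes, radial glia and neural crest cells. Its brighter probe (chromosome 14, 98247658 to 98247717) read 22.96 on the Pax6 array and 26.04 on the EGFP array. The difference of -0.40 ± 0.28 was the lowest of the 10 genes. It stayed within 2 measurement errors of 0, and it was -0.02 with normexp background correction. The second probe stayed at background. The sister receptor gene Ednra was 2.84-fold higher, with signals of 981.9 on the Pax6 array and 297.9 on the EGFP array (1.51 ± 0.20, and 1.29 with normexp background correction), although its 3 detected probes ranged from 0.00 to 1.51, bounds included. The ligand genes Edn1 and Edn2 differed by -0.04 ± 0.21 and -0.54 ± 0.21, Edn3 was not well above background, and the converting enzyme Ece1 differed by 0.02 ± 0.20. Ednrb and Ednra thus had differences of opposite sign, but only that of Ednra passed 2-fold.

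Promoters of 4 of the genes are shown for the values described so far: Aldh1l1 had the largest measured difference, Fabp7 is a known Pax6 target, Prom1 was higher by both probes, and Gpm6b lay nearest to 0. They are RefSeq sequences of build GRCm38.p6, 250 bases before to 50 after the start, 5′ to 3′ on the gene's strand, and capitals mark any of 8 motifs searched.
Aldh1l1, chr6:90550543-90550842, plus strand: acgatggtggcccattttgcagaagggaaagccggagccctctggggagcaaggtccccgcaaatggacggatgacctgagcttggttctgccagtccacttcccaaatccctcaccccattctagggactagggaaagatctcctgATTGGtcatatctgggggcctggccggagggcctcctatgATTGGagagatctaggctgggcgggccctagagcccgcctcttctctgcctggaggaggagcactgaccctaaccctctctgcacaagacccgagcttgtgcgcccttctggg
Fabp7, chr10:57784673-57784972, plus strand: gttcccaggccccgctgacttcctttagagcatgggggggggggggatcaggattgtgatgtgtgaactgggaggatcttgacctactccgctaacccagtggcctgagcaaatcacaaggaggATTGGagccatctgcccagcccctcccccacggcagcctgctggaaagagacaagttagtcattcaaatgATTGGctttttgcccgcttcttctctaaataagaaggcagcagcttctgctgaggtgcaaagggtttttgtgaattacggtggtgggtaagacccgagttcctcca
Prom1, chr5:44101687-44101986, minus strand: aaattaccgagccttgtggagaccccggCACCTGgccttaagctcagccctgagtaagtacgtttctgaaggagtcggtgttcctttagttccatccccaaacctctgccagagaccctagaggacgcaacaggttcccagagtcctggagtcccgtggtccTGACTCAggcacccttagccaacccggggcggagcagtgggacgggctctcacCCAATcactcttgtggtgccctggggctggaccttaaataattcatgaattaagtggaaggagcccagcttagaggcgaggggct
Gpm6b, chrX:166238693-166238992, plus strand: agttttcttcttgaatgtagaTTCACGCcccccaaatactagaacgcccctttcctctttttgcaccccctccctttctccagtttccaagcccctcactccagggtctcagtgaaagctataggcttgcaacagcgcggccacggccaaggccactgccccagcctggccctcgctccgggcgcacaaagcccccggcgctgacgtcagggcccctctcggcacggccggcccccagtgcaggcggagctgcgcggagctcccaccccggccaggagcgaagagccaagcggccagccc

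RefSeq promoters were matched for 8 of the 10 genes by symbol, with 9 promoters since Prom1 has 2. Aqp4 and Sparcl1 were not matched. The motifs were searched on both strands in each promoter and in all 32544 promoters of that length. The letters TTCACGC, the core of the site bound by the Pax6 paired domain, occurred in 1 of the 8 genes, Gpm6b, starting at position -229 from the start, and in 1.27% of all promoters. Fabp7 did not hold these letters in this window. ATTGG, read as CCAAT on the other strand and known as the CCAAT box, occurred in 5 of the 8 (Glul, Aldh1l1, Fabp7, Prom1 and Ednrb) and in 37.4% of all promoters. TGACTCA, the AP-1 site, occurred in Gja1 and Prom1 and in 5.19% of all promoters. CACCTG, the E-box of Zeb and Snail repressors, occurred in Prom1 and in 20.3%. The homeodomain core TAATTA (5.29% of all promoters), the Pou octamer ATGCAAAT (1.75%), the Sox core ACAATG (12.4%) and TATAAA (13.6%) were in none of the 9 sequences. No matches overlapped each other. A match describes letters, not a bound site.

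**Figure D4:**
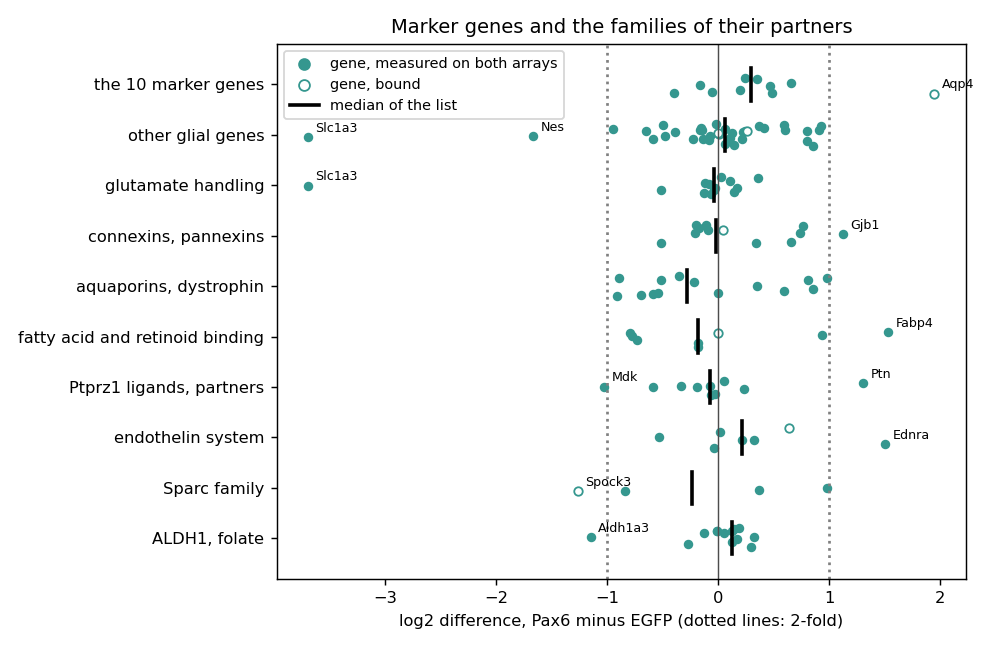
Log2 difference (Pax6 minus EGFP) of each gene above background in the 10 marker genes and in the lists of other glial genes and of partner genes. Filled points were measured on both arrays, open points are bounds, black bars are list medians, and the named genes are those past the dotted 2-fold lines.

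Other astrocyte and radial glia genes lay mostly within 2-fold too. Of 46 further genes, 37 were above background, of which 0 were at least 2-fold higher, 2 were at least 2-fold lower and 35 lay within 2-fold. Scaling by array medians took 1 of them, Nfix, past 2-fold (1.01). Their median was 0.06, beside 0.30 for the 10 marker genes and -0.01 for all genes. The 2 lower genes were Slc1a3 and the progenitor filament gene Nes, which read 1711 on the Pax6 array and 4678 on the EGFP array (-1.66 ± 0.20). The highest values, picked out after they were seen, were those of Nfix (0.92 ± 0.20), a glial transcription factor, Acsl6 (0.91 ± 0.25), a fatty acid enzyme, and the Notch target Hes1 (0.85 ± 0.21). The 2 detected probes of Nfix ranged from 0.35 to 0.92. The 3 detected probes of Acsl6 ranged from 0.00 to 0.91, and Acsl6 was at 0.37 with normexp background correction. The lowest values inside 2-fold were those of Apoe (-0.95 ± 0.20, on 9 spots) and Ndrg2 (-0.65 ± 0.20). Of the 37 genes, 20 lay above 0 and 16 below. Sox9, a transcription factor of glial fate, differed by 0.59 ± 0.20, although its 3 detected probes ranged from 0.00 to 0.68, bounds included. The filament gene Vim differed by 0.13 ± 0.20. Gfap, the astrocyte filament gene, read 12.1 on the Pax6 array and 7.54 on the EGFP array, where it was not well above background, which gave a bound of at least 0.01. Aquaporins apart from Aqp4 were mixed, with Aqp1 and Aqp5 at 0.81 ± 0.20 and 0.85 ± 0.20 and Aqp3 at -0.91 ± 0.20. Dtna, a dystrobrevin gene of the complex that anchors Aqp4 in endfeet, differed by 0.98 ± 0.20 (1.06 after scaling by array medians), and Dmd of the same complex by -0.89 ± 0.20.

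The labels call the cultures neural progenitors. Of 9 neural progenitor markers, 8 were above background on at least 1 array, with Sox2 higher (1.74 ± 0.21) and Nes and Slc1a3 lower, while Hes5 stayed at background. Sox2 is also among the genes under doxycycline control in N31, and whether its probe reads the introduced copy was not tested. Of the 46 further glial genes, 37 were above background, and Aldoc, Clu, Apoe and Ndrg2 were so on both arrays. Slc1a2, Kcnj10, Mlc1, Gjb6, Bcan, Ncan, Thbs4 and Pdpn of that list stayed at background on both arrays. Markers of other cell types were read by their counts and by their summed scaled signal, in multiples of each array's 75th percentile. Epithelial markers were at least 2-fold lower in 9 of 10 genes above background, with a sum of 27.2 on the Pax6 array and 77.1 on the EGFP array, and in 7 of 10 with normexp background correction. Neuronal markers summed to 14.5 on the Pax6 array and 14.8 on the EGFP array, with 1 of 10 at least 2-fold lower (Snap25). Their median was -0.27, with 3 above 0 and 7 below, and Nefl (0.37 ± 0.20) was the largest part of both sums. Oligodendrocyte lineage markers summed to 8.03 on the Pax6 array and 11.0 on the EGFP array, with 1 of 8 higher (Pdgfra) and 1 lower (Mbp, at -0.99 after scaling by array medians), and their defining factors Olig1 and Olig2 were not well above background. Fibroblast markers, with 3 of 10 higher (Col3a1, Dcn and Fap) and 3 lower (Col1a1, Col1a2 and Thy1), summed to 66.5 on the Pax6 array and 113.9 on the EGFP array. Their median was 0.27 with 6 of 10 above 0, and without Col1a2, which carries most of the sum, they summed to 19.6 on the Pax6 array and 7.48 on the EGFP array, the other direction. With normexp background correction Fap was at 1.92 and not 4.27, and Thy1 was at -0.34, inside 2-fold. Endothelial markers, with 0 of 5 different by 2-fold, summed to 4.09 on the Pax6 array and 5.80 on the EGFP array. Most of both sums came from Flt1 (-0.51 ± 0.20), with signals of 3972 on the Pax6 array and 4868 on the EGFP array. Pecam1, Cdh5 and Tie1 of that list stayed at background on both arrays. Of 10 microglia and blood markers, only Cd68 was above background by its brightest probe, and 1 of 3 probes of Csf1r was also above it. Pluripotency markers, with 1 of 7 lower (Zfp42, at -0.81 and so inside 2-fold with normexp background correction), summed to 0.410 on the Pax6 array and 0.535 on the EGFP array. The part of these cell types in the marker genes' differences was not tested.

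**Figure D5:**
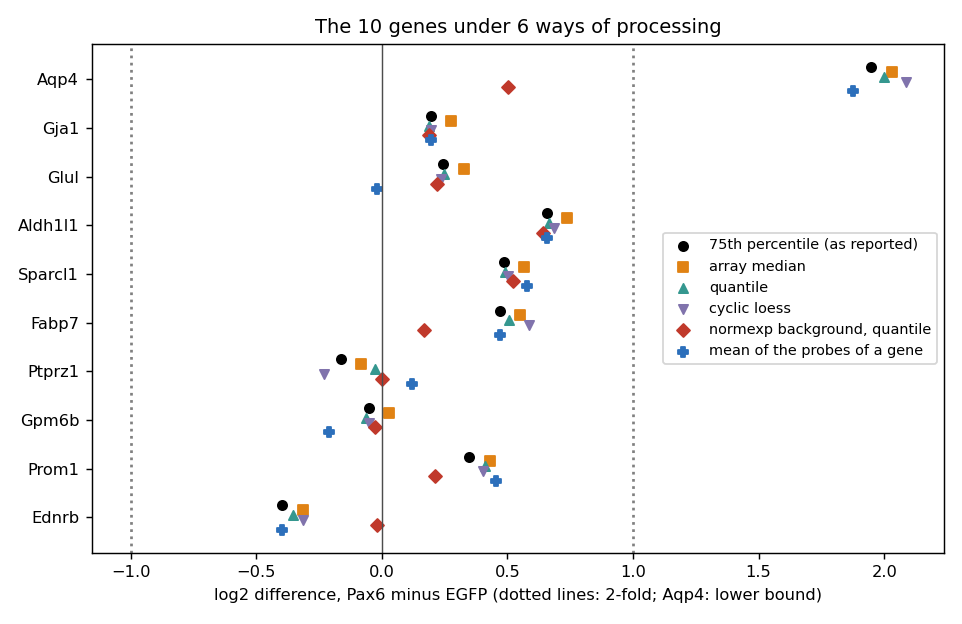
Log2 difference (Pax6 minus EGFP) of the 10 marker genes under 6 ways of processing the same spots, where Aqp4 is a lower bound. Aldh1l1, Sparcl1, Gja1, Prom1 and Fabp7 lie above 0 under all 6, while Glul, Ptprz1 and Gpm6b lie on both sides of 0 or at it, and normexp background correction moves Aqp4, Ednrb and Fabp7 towards 0.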

How the data were processed

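RNA was extracted with ISOGEN, amplified and labelled with Cy3, per the labels' protocols. Per the file headers, spots were quantified in Agilent Feature Extraction 10.7.3.1. Intensity values deposited by the authors had background subtracted and trends across the array removed, with no normalization between arrays. The deposited flags (unit other) mark outlier spots, saturated spots and spots well above background (over 13 background SDs), per the file headers. The series table repeats those deposited intensities exactly.

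Of 43379 non-control spots, outliers (52 on the Pax6 array and 51 on the EGFP array) were left out, which kept 43283 spots of 41168 probes. The share of non-control spots well above background was 67.2% on the Pax6 array and 64.7% on the EGFP array, and 0 were saturated. Spots of a probe were averaged. A gene took its brightest probe, and entered the comparison when that probe passed on 1 or both arrays. Accessions gave 22951 probes a current symbol, the others kept the array's name, and this added 0 probes to the 10 genes. Coordinates are those of the array design (mm7), for which no annotation was used here. The single array per culture limits the precision. The members and gene lists were chosen with earlier results of these data known. Named genes are all members, their paralogs and partners, and genes of each list at least 2-fold different, and other genes are examples picked with their values in view. The comparison was repeated with scaling by array medians, quantile normalization, cyclic loess, normexp with an offset of 50, the mean of a gene's probes, a stricter filter or none, and other rules of size, with limma 3.58.1 in R 4.3.3. Some genes of the lists are not reported here. The steps were tested on simulated data. The changes planted there were larger than 2-fold, in genes above background on both arrays. Recovery of smaller changes or of changes at dim probes was not tested.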

Additional observations from a re-analysis of the deposited data

How the results depend on the processing

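Of 80 values of the 10 genes under the alternatives, 32 equalled the reported value, as settings that cannot move a gene must. Of the other 48, 42 lay within 1 measurement error of it and 6 moved further. These were Aqp4 (0.50 with normexp background correction, under which another probe is the brightest, and 3.01 with dim values as measured), Ednrb (-0.02 with normexp background correction), Glul and Ptprz1 by the mean of their probes (-0.02 and 0.12), and Ptprz1 without its very bright probe (0.40). The median of the 10 genes ranged from 0.20 with normexp background correction to 0.38 after scaling by array medians and also without that probe. The count of marker genes at least 2-fold different was 0 with normexp background correction and 0 when both arrays had to be above background, and 2 genes differed by more than 2 measurement errors. Over all genes the count of 919 was 285 with normexp background correction, 2539 with no filter on dim probes, 268 at 3-fold and 3121 by 2 measurement errors. Of the 2-fold genes, 49.2% were higher, but 59.3% after scaling by array medians, 56.7% after cyclic loess and 61.8% with normexp background correction. The further glial genes at least 2-fold different numbered 2, but 3 after scaling by array medians, which took Nfix past 2-fold, and 6 with no filter on dim probes. The rule of 2 measurement errors and the removal of the bright Ptprz1 probe or of Col1a2 were chosen after seeing the data. Dim probes limit Aqp4, Fabp7 and Ednrb most. No paired analysis was possible because each group has 1 array.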
